A study of Homo sapiens with 9 samples.

Results

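LNCaP cells, an established line from a human prostate cancer metastasis, were given etoposide before the androgen dihydrotestosterone (DHT) and set against cells given DHT alone. The comparison is of 1 microarray with 1, the DHT+ET array minus the DHT array, which are 2 of the 9 arrays of the study. All cells of both groups were first deprived of androgen for 48 h in medium with 5% charcoal-stripped serum. The DHT+ET cells then received 100 µM etoposide for 2 h before 100 nM DHT for 16 h, and the DHT cells received 100 nM DHT for 16 h. The labels do not say whether etoposide stayed in the medium during the 16 h. Another array, of deprived cells given neither compound (called vehicle here), serves only to place each level between the deprived and the stimulated state. The other 6 arrays enter only where named: merbarone at 100 µM in the place of etoposide, cells kept in 10% serum, and 4 arrays of deprived cells, with and without 100 nM DHT, that had been sorted for a fluorescent vector carrying either a control shRNA or an shRNA against TOP2B. Etoposide without DHT was not analysed here, so what etoposide did to the DHT response and what it did apart from DHT cannot be told apart.

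Etoposide is a topoisomerase II poison: it traps the enzyme on DNA it has cut and so leaves protein-linked strand breaks. Such breaks activate the p53 protein, a transcription factor that raises genes of cell-cycle arrest, repair and cell death. The androgen receptor, once bound by DHT, turns on a set of prostate genes led by the kallikreins, and topoisomerase II is also used when genes are transcribed.

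Values are log2 expression levels from Affymetrix U133 Plus 2.0 arrays, and a difference is the DHT+ET level minus the DHT level on that scale. Each of 11865 genes was represented by its brightest probe set. A level below the median of its own array (5.68 with DHT+ET, 5.65 with DHT and 5.66 with vehicle) is called dim. Where the lower of the levels compared is dim it was raised to that median first, and the difference is then a lower limit, written "at least". With 1 array a side there is no replicate check within the comparison. The test, limma, takes its spread from how far 3 pairs of DHT and vehicle arrays differ among themselves and assumes that the etoposide array varies likewise. The labels do not say that the arrays came from separate cultures, so adjusted p-values (Benjamini-Hochberg over all 11865 genes) measure only the spread between these samples. "Rose" and "fell" are used only of genes past that test at 0.05. The array counts RNA from a whole culture, so fewer cells that express a gene and less of its RNA per cell cannot be told apart.

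The DHT+ET and DHT arrays were alike over most genes, with a Pearson correlation of 0.9899 over probe sets, and RNA quality was close: the 3' minus 5' difference of the beta-actin control probe sets was 0.54 with DHT+ET, 0.46 with DHT and 0.47 with vehicle. On the 4 arrays of sorted cells that enter the test it was between 2.38 and 3.09. All 7 measured luminal prostate markers, among them KRT8, KRT18 and EPCAM, were above the array median on both arrays. The 3 basal epithelial markers measured were dim on both, as were 4 of 5 stromal, 3 of 4 immune, 1 of 3 endothelial and 3 of 4 neuroendocrine markers. Summed on the linear scale, the luminal markers came to 14.26 with DHT+ET and 14.66 with DHT (log2), and the stromal markers to 8.87 with DHT+ET and 8.55 with DHT.

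More genes were lower with etoposide than higher. Of the 11865 genes, 144 were at least 1 lower (2-fold; 1.21% of genes) and 70 at least 1 higher (0.59%), together 214 (1.8%). The test called 99 genes lower (0.834%) and 25 higher (0.211%), 124 in all (1.05%), of which 62 and 21 also differed by at least 1. The median difference over all genes was -0.06, and the 5th and 95th percentiles were -0.63 and 0.44. These calls rest on the sorted-cell pairs: without the sh-control pair 0 genes were called higher or lower (1436 had an unadjusted p under 0.05), and without the sh-TOP2B pair 6 rose and 23 fell. With no intensity trend in the fit 0 were called either way (1529 had an unadjusted p under 0.05). Among named genes the calls of ANKRD20A12P, BARD1, BAX, GINS1, KIF2C, KLF4, MMP16, PDIA4, UGT2B15, UGT2B28 and ZMAT3 were lost under another probe set rule or scaling (limma adjusted p between 0.0501 and 0.136). The call of TOP2A, which was dim on both arrays, was lost with the median over probe sets (limma adjusted p = 0.897). Most of the genes that differed stood at similar levels with DHT and vehicle, but few genes of any kind responded to DHT. Of all genes, 0.177% were at least 1 higher with DHT than with vehicle and 0.0337% at least 1 lower. Of the 144 lower genes, 123 had a difference under 0.5 either way between DHT and vehicle, as had 51 of the 70 higher genes. The share of all genes under 0.5 was not counted, so these counts do not show that the genes responded less to DHT than others. Both differences also share the DHT array. The genes nearest the threshold of 1 stood at -1.0014 and -0.99668 on the lower side and at 1.0029 and 0.99969 on the upper side.

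The largest falls included genes of cell-surface receptors, secreted prostate proteins and matrix proteases. OR51E2, which encodes an odorant receptor made in prostate epithelium, had a level of 7.21 with DHT+ET, 11.26 with DHT and 11.61 with vehicle. The etoposide array was thus far below both others, which were close to each other. OR51E2 fell by 4.06 ± 0.25 (SE; limma adjusted p = 0.00225), and its 3 probe sets gave -4.44 to -3.69. Its relative OR51E1 was dim with DHT+ET at 5.63, against 8.80 with DHT and 9.02 with vehicle, and fell by at least 3.12 (limma adjusted p = 0.0372). The same order, with etoposide low and DHT near vehicle, was seen in 11 of the 15 largest falls, where DHT and vehicle differed by under 0.5. Closeness of DHT and vehicle does not set these genes apart. Of all genes, only 0.177% were at least 1 higher with DHT than with vehicle and 0.0337% at least 1 lower.

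EPHA3, an ephrin receptor tyrosine kinase gene, stood at 6.36 with DHT+ET, 9.19 with DHT and 9.07 with vehicle and fell by 2.83 ± 0.17 (limma adjusted p = 0.00225). MMP16, a membrane-anchored matrix metalloprotease gene, stood at 7.34 with DHT+ET, 9.98 with DHT and 10.26 with vehicle and fell by 2.64 ± 0.19 (limma adjusted p = 0.00416), with its 5 probe sets between -2.64 and -0.54. The median over its probe sets, -1.23, did not pass (limma adjusted p = 0.0644). ADAM2, a gene of a membrane protein best known from sperm, stood at 8.49 with DHT+ET, 11.01 with DHT and 11.20 with vehicle and fell by 2.51 ± 0.16 (limma adjusted p = 0.00303). Among the DHT+ET, DHT and vehicle arrays, all 3 genes were thus low on the DHT+ET array only. EPHA3 was also lower with merbarone plus DHT than with DHT alone, by 1.36. ADAMTS1, a secreted metalloprotease gene, had a level of 9.85 with DHT+ET, 12.21 with DHT and 11.99 with vehicle and fell by 2.36 ± 0.12 (limma adjusted p = 0.00189). RLN1, which encodes the prostate hormone relaxin 1, stood at 8.31 with DHT+ET, 10.81 with DHT and 10.12 with vehicle and fell by 2.51 ± 0.12 (limma adjusted p = 0.00189). ABCA12, a lipid transporter gene, and BMPR1B, a receptor gene for bone morphogenetic proteins, were lower by 2.59 and 2.37 without passing the test (limma adjusted p = 0.0971 and 0.0761).

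The largest rises included p53 target genes, a chemokine gene and a nucleotide synthesis gene. TP53I3, a p53-induced oxidoreductase gene, had a level of 9.70 with DHT+ET, 6.99 with DHT and 6.77 with vehicle and rose by 2.70 ± 0.38 (limma adjusted p = 0.0357). TYMS, which encodes thymidylate synthase, the enzyme that makes the thymidine nucleotide for DNA, had a level of 11.19 with DHT+ET, 8.96 with DHT and 9.17 with vehicle and rose by 2.23 ± 0.15 (limma adjusted p = 0.00319). Both of its probe sets that were not dim gave the same picture, at 2.23 and 2.42. CXCL8, the gene of the neutrophil chemokine interleukin 8, stood at 10.67 with DHT+ET, 8.33 with DHT and 7.99 with vehicle and rose by 2.34 ± 0.32 (limma adjusted p = 0.0344). VMP1, an autophagy gene, rose by 1.70 and the pseudogene transcript ANKRD20A12P by 2.39 (limma adjusted p = 0.0300 and 0.0372), while ANKRD36B (2.11), CEL, a digestive lipase gene (2.11), LINC00537 (1.72) and ANXA1, an annexin gene (1.68), were higher without passing. Of the 15 largest rises 11 passed the test, which called 0.211% of all genes higher, and 7 are on the lists of p53 targets. Those lists hold 50 of the 11865 genes and were drawn up with earlier results of these arrays known. The 15 were chosen on the difference that is tested, so the passes are partly fixed by the choice.

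**Figure D1:**
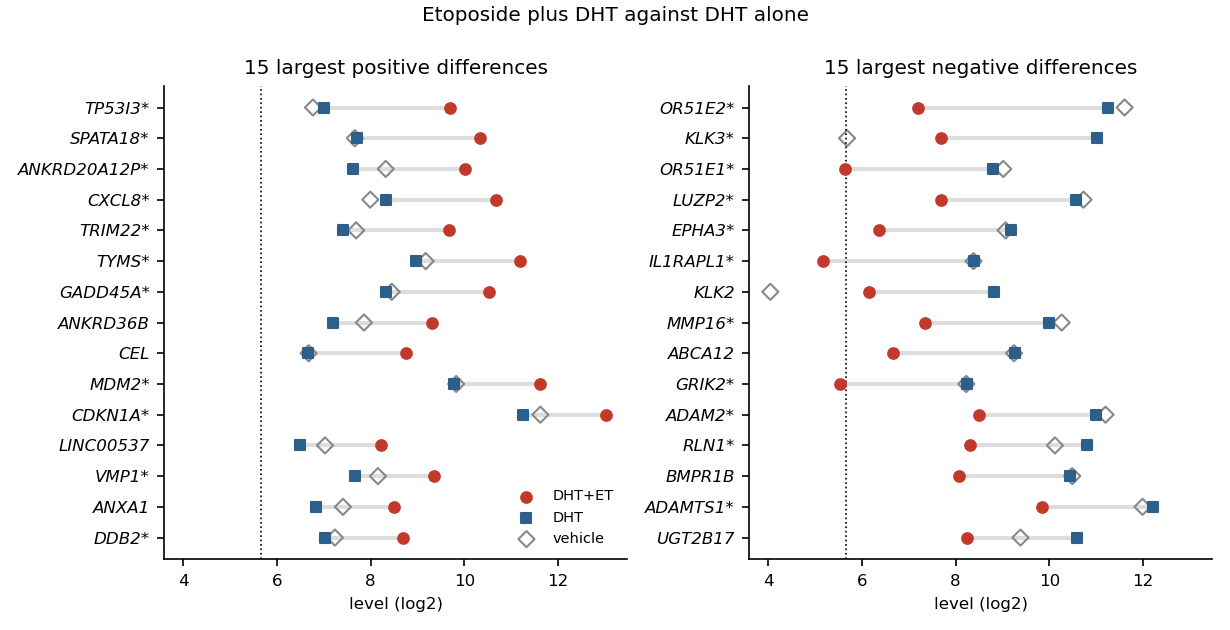
Log2 levels of the 15 largest rises and the 15 largest falls on the DHT+ET, DHT and vehicle arrays, 1 point per array, with the median of the DHT array as a dotted line and an asterisk at genes past limma. OR51E2 stands at 7.21 with DHT+ET against 11.26 with DHT and 11.61 with vehicle, and in 11 genes of each panel DHT and vehicle differ by under 0.5.

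The kallikrein genes KLK3 and KLK2, both secreted proteases of prostate fluid and KLK3 the gene of prostate-specific antigen, had the largest negative differences among genes that DHT had raised. KLK3 had a level of 7.68 with DHT+ET, 11.02 with DHT and 5.68 with vehicle, so the etoposide array lay between the others. It fell by 3.34 ± 0.18 (SE; limma adjusted p = 0.00189). KLK2 had a level of 6.16 with DHT+ET, 8.82 with DHT and a dim 4.04 with vehicle, and its difference of -2.66 ± 0.62 did not pass (limma adjusted p = 0.130). Probe sets of each gene disagreed. For KLK3, another probe set gave -3.24 and the other one -0.01, with levels of 8.41 on both arrays. For KLK2, another gave -2.24, a further one stood at 5.93 on both arrays, and 1 was dim.

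The promoters of these genes are shown because both hold a match to the androgen receptor motif, a pair of facing half-sites, GAACA and GTNCT, with a spacer of fixed length between them, which was searched for on both strands. Each is the 250 bases before the annotated start, from RefSeq on build GRCh38.p14, at chr19:50854665-50854914 for KLK3 and chr19:50873189-50873438 for KLK2, both on the plus strand, and capitals mark the match.
KLK3: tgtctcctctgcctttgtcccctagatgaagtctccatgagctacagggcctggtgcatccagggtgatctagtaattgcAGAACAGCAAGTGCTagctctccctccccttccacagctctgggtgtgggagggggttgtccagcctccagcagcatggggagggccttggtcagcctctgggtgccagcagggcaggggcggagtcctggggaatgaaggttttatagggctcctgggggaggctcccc
KLK2: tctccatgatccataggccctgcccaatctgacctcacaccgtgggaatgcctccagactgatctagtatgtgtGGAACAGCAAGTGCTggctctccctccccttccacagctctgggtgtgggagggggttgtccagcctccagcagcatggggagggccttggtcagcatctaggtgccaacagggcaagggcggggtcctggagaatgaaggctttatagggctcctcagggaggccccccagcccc
The match lies at positions -170 to -156 from the start in KLK3 and at -176 to -162 in KLK2. Over the RefSeq windows, which also hold a short stretch after the start, the motif was found in 2 of 31 promoters of androgen-induced genes, KLK3 and KLK2. It was found in 12 of 9702 promoters of genes kept (0.124%) and in 72 of 27305 promoters in all (0.264%). A match describes the letters in the window, not a bound site.

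Most androgen-induced genes were lower with etoposide, but by little. Of 52 listed genes 43 were kept, of which 32 were lower and 11 higher, with a median difference of -0.27 (-0.44 with the median over probe sets), against -0.06 over all genes. Of these 43, 7 were at least 1 lower and 1 at least 1 higher, TMPRSS11E, a membrane protease gene, at 1.03 (named after its value was seen). TMPRSS11E stood at 8.135 with DHT+ET, 7.10 with DHT and 7.81 with vehicle, so DHT had not raised it in these cells. The test called 2 of the 43 lower, KLK3 and ADAMTS1, and 0 higher. ADAMTS1 was only 0.22 higher with DHT than with vehicle, so not all listed genes responded much to DHT here. Of all genes, 1.21% were at least 1 lower and 0.59% at least 1 higher, and the test called 0.834% lower and 0.211% higher. TMPRSS2, a membrane protease gene, had a level of 10.02 with DHT+ET, 11.35 with DHT and 9.84 with vehicle, a difference of -1.34 ± 0.33 (limma adjusted p = 0.146). FKBP5, a co-chaperone gene of steroid receptors, stood at 9.41 with DHT+ET, 10.34 with DHT and 9.33 with vehicle, a difference of -0.93 ± 0.35 (limma adjusted p = 0.289). Both thus stood close to the vehicle level with etoposide, without passing the test. The other members at least 1 lower, named after their values were seen, were the kinase gene CAMKK2 (-1.27), the transporter gene ABCC4 (-1.17) and the transcription factor gene ZBTB16 (-1.01). SNAI2, a transcription factor gene, at 6.48 with DHT+ET, 5.82 with DHT and 3.96 with vehicle, and PTGER4, a prostaglandin receptor gene, at 9.79, 9.15 and 8.42 on the same arrays, were higher with etoposide (also named after their values were seen).

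The androgen effect was also placed gene by gene. In the inhibitor series 21 genes were at least 1 higher with DHT than with vehicle (0.177%) and 4 at least 1 lower (0.0337%). The share of the rise kept with etoposide is the DHT+ET level minus the vehicle level, over the DHT level minus the vehicle level, with dim levels raised to the median. Since the DHT array both chose these genes and enters the share, a lower value with etoposide is partly fixed by the choice, and the shares are a description. The median share kept was 37.4%, with quartiles of 11.8% and 62.9%: 13 genes kept under 50%, 8 kept between 50% and 100%, and 0 kept 100% or more. FKBP5 kept 7.91%, TMPRSS2 11.8%, KLK2 15.8% and KLK3 37.4% of the rise. C1orf116 kept 81.6%, the sialyltransferase gene ST6GALNAC1 74.0%, the solute carrier gene SLC45A3 62.5% and ZBTB16 60.7% (these 4 named after their values were seen). The share of KLK2 is smaller for the raising of its dim vehicle level. As deposited, KLK2 stood 2.11 above vehicle with DHT+ET and 4.77 above it with DHT. With all levels as deposited 29 genes met the rule, and the median share was 49.0%.

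In 3 of the 21 genes the etoposide level was below vehicle as well as below DHT. UGT2B17, which encodes an enzyme that inactivates androgens by glucuronidation, stood at 8.24 with DHT+ET, 10.59 with DHT and 9.38 with vehicle, and its difference of -2.35 did not pass (limma adjusted p = 0.105). RLN2, the gene of relaxin 2, stood at 8.50 with DHT+ET, 10.23 with DHT and 9.15 with vehicle. ARG2, the gene of mitochondrial arginase, stood at 8.78 with DHT+ET, 9.97 with DHT and 8.85 with vehicle and fell by 1.19 (limma adjusted p = 0.0435; RLN2 and ARG2 were named after their values were seen). KLK3 and ARG2 were the genes of the 21 past the test.

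**Figure D2:**
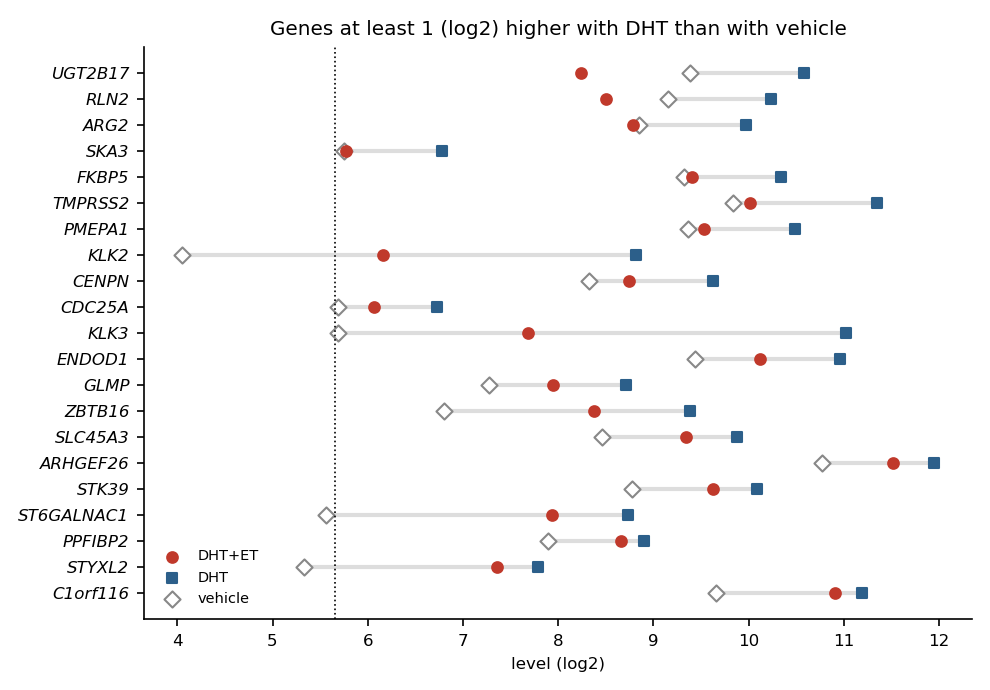
Log2 levels of the 21 genes at least 1 higher with DHT than with vehicle in the inhibitor series, with a point each for the DHT+ET, DHT and vehicle arrays, ordered by the share of the rise kept. The shares run from -95.3% for UGT2B17 to 81.6% for C1orf116, with a median of 37.4%.

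A set of DHT-responsive genes chosen on other arrays was also lower on balance. The 4 sorted-cell arrays of the shRNA series, which are not in the difference between DHT+ET and DHT, named 143 genes at least 1 higher with DHT in both pairs. With etoposide, 106 of these were lower and 37 higher, with a median of -0.29 and quartiles of -0.67 and 0.00, against a median of -0.06 over all genes. Of the 143 genes, 14 were at least 1 lower and 1 at least 1 higher, against 1.21% and 0.59% of all genes. The higher one was IRS2, an insulin receptor substrate gene, at 1.22 (named after its value was seen). The 98 genes at least 1 lower with DHT in both sorted pairs did not move the other way: 68 were lower and 28 higher, with a median of -0.18. Of those 98, 10 were at least 1 lower and 0 at least 1 higher, against the same 1.21% and 0.59% of all genes. The lower ones were led by SHISA3, at 7.88 with DHT+ET, 10.22 with DHT and 10.30 with vehicle, which did not pass (limma adjusted p = 0.149; named after its value was seen). In the inhibitor series these sets responded weakly to DHT itself, with medians of 0.30 and -0.19.

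Genes listed as androgen-repressed were lower on balance with etoposide too, though not all of them were lowered by DHT in these cells. Of 23 listed genes 19 were kept, of which 15 were lower and 4 higher, with a median of -0.73. Of the 19, 6 were at least 1 lower and 0 at least 1 higher, against 1.21% and 0.59% of all genes, and the test called 3 lower and 0 higher, against 0.834% and 0.211%. UGT2B17, which is in this count of 6, is also among the 21 genes at least 1 higher with DHT than with vehicle, at 1.20. LUZP2, a gene of a leucine zipper protein, stood at 7.68 with DHT+ET, 10.57 with DHT and 10.73 with vehicle and fell by 2.89 ± 0.22 (limma adjusted p = 0.00457). The glucuronosyltransferase genes UGT2B15, at 10.14 with DHT+ET and 11.59 with both DHT and vehicle, and UGT2B28, at 8.97 with DHT+ET, 10.05 with DHT and 9.65 with vehicle, fell by 1.45 and 1.08 (limma adjusted p = 0.0443 and 0.0372). Close paralogs of this family can share probes, so which member was measured is uncertain. TNFRSF19, a receptor gene of the tumour necrosis factor family, stood at 9.23 with DHT+ET, 11.43 with DHT and 11.62 with vehicle, and its difference of -2.20 did not pass (limma adjusted p = 0.141). In both sorted-cell pairs TNFRSF19 was higher with DHT than with vehicle, by 1.54 and 1.33.

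Genes that p53 is known to raise were higher as a group. Of 55 listed targets 50 were kept, of which 44 were higher and 6 lower, with a median difference of 0.67. E2F7 among them was dim on both arrays. Of the 50, 16 were at least 1 higher and 0 at least 1 lower, against 0.59% and 1.21% of all genes, and the test called 13 higher and 0 lower, against 0.211% and 0.834%. The list was drawn up with earlier results of these arrays known.

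Among genes of arrest and p53 feedback, 4 of 13 rose (median 0.60). CDKN1A, the gene of p21, an inhibitor of cyclin-dependent kinases, stood at 13.03 with DHT+ET, 11.25 with DHT and 11.62 with vehicle and rose by 1.77 ± 0.19 (limma adjusted p = 0.0153). MDM2, the gene of the ligase that degrades p53, stood at 11.62 with DHT+ET, 9.78 with DHT and 9.82 with vehicle and rose by 1.84 ± 0.10 (limma adjusted p = 0.00189), with its 8 probe sets that were not dim on both arrays between 0.50 and 3.56. GADD45A, a stress sensor gene, stood at 10.52 with DHT+ET, 8.33 with DHT and 8.45 with vehicle and rose by 2.18 ± 0.31 (limma adjusted p = 0.0372). In all 3 genes the DHT level was at or just below the vehicle level and the etoposide level well above both. The other riser was the ribosomal-protein-like gene RPS27L, by 0.68 (limma adjusted p = 0.0296, named after its value was seen), while PHLDA3, an inhibitor gene of the kinase AKT, was 1.04 higher without passing (limma adjusted p = 0.0527).

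Genes of cell death gave 3 risers of 13 (median 0.69). They were TP53I3, described above, ZMAT3, an RNA-binding zinc finger gene, and BAX, the gene of the pore-forming killer of mitochondria. ZMAT3 stood at 10.96 with DHT+ET, 9.55 with DHT and 9.72 with vehicle and rose by 1.41 ± 0.21 (limma adjusted p = 0.0386). BAX stood at 9.23 with DHT+ET, 7.99 with DHT and 8.11 with vehicle and rose by 1.25 ± 0.16 (limma adjusted p = 0.0294). The death receptor gene FAS stood at 10.81 with DHT+ET, 9.21 with DHT and 9.25 with vehicle, a difference of 1.60 ± 0.26 that did not pass (limma adjusted p = 0.0516). Its 4 probe sets that were not dim on both arrays lay between 1.21 and 1.74.

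The group of DNA repair had the largest median of the p53 groups, 1.08 over 6 genes, all of them higher. DDB2, which recognises ultraviolet lesions, stood at 8.69 with DHT+ET, 7.02 with DHT and 7.24 with vehicle and rose by 1.67 ± 0.23 (limma adjusted p = 0.0357). PCNA, the sliding clamp of DNA polymerases, stood at 11.86 with DHT+ET, 10.69 with DHT and 10.66 with vehicle and rose by 1.17 ± 0.12 (limma adjusted p = 0.0152). RRM2B, the p53-regulated subunit of ribonucleotide reductase, rose by 0.81 (limma adjusted p = 0.0372, named after its value was seen), and XPC, another lesion sensor, and the bypass polymerase gene POLH were higher by 1.11 and 1.05 without passing.

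Of 18 p53 targets in metabolism and other roles, 3 rose (median 0.48). SPATA18, which encodes a regulator of mitochondrial quality, stood at 10.34 with DHT+ET, 7.71 with DHT and 7.66 with vehicle and rose by 2.62 ± 0.20 (limma adjusted p = 0.00434). TRIM22, an antiviral ligase gene that is also induced by interferon, stood at 9.68 with DHT+ET, 7.40 with DHT and 7.69 with vehicle and rose by 2.28 ± 0.22 (limma adjusted p = 0.0115). CES2, a carboxylesterase gene, rose by 1.35 ± 0.16 (limma adjusted p = 0.0237), and ACER2, a ceramidase gene, was 1.18 higher without passing. Not all targets were higher: SESN1, a stress-response gene, stood at 10.48 with DHT+ET and 10.49 with DHT (named after its value was seen). The 6 lower targets lay between -0.22 and -0.01.

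**Figure D3:**
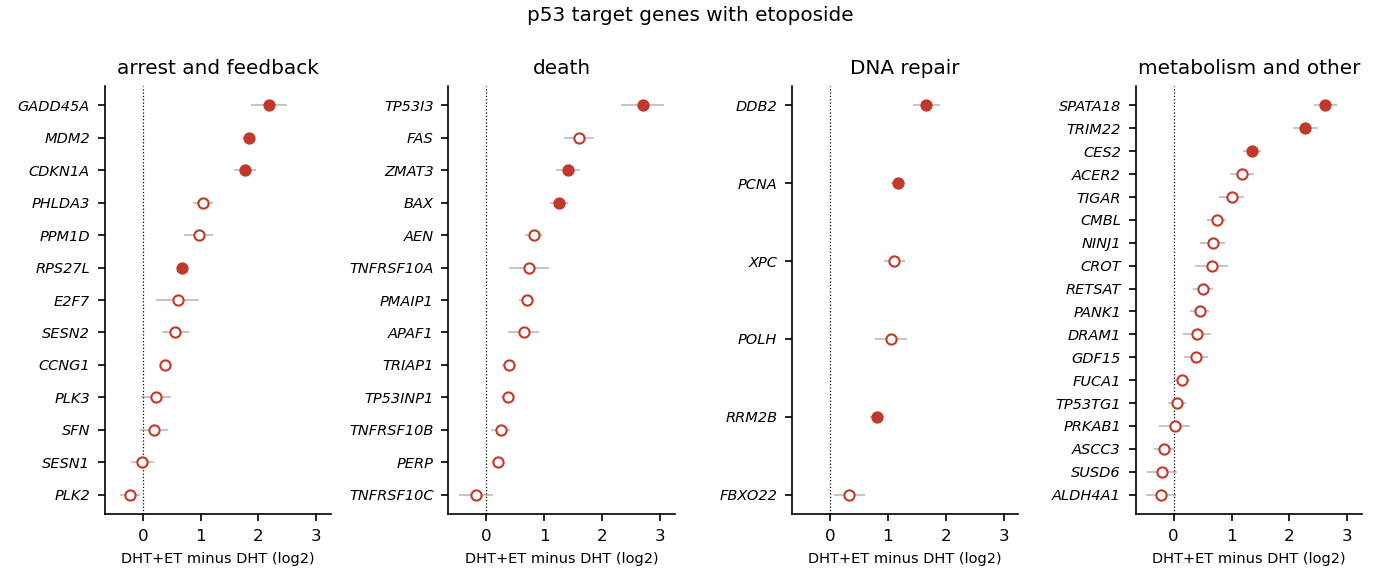
Differences (DHT+ET minus DHT, log2) of the 50 p53 targets kept, grouped by role, with bars for the limma standard error and filled points for genes past the test. Filled points lie to the right of 0 in every group, from 0.68 for RPS27L to 2.70 for TP53I3, and 6 of the 50 genes lie below 0.

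Genes of mitosis were lower. Of 36 listed genes 33 were kept, but 11 were dim on both arrays, and of the 22 others 18 were lower and 4 higher, with a median of -0.63. Raising dim levels gave all 33 a median of -0.26, so the size of the shift is limited by how dim these genes were. Of the 33, 3 were at least 1 lower and 0 at least 1 higher, against 1.21% and 0.59% of all genes. The test called 5 lower and 0 higher, against 0.834% and 0.211% of all genes. Among the 5 was DLGAP5, which was dim on both arrays. CCNB1, the cyclin gene of mitotic entry, stood at 7.63 with DHT+ET, 9.32 with DHT and 8.85 with vehicle and fell by 1.68 ± 0.17 (limma adjusted p = 0.0125). TPX2, a spindle assembly gene, was dim with DHT+ET at 5.58, against 6.92 with DHT and 6.73 with vehicle, and fell by at least 1.24 (limma adjusted p = 0.0357). NUSAP1, a gene of a spindle microtubule protein, was dim with DHT+ET at 5.35, against 6.84 with DHT and 6.70 with vehicle, and fell by at least 1.16 (limma adjusted p = 0.0181). In these 3 genes the vehicle level lay nearer to DHT than to DHT+ET. CDK1, the kinase that CCNB1 activates, at 10.20 with DHT+ET and 10.54 with DHT, and CCNA2, a cyclin gene of replication and mitosis, at 6.33 with DHT+ET and 5.96 with DHT, did not pass (both named after their values were seen).

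The promoters of CCNB1 and NUSAP1 are shown for the elements that mitotic genes are known to carry, the CCAAT box and the cell-cycle homology element TTTGAA or TTTAAA. Both are the 250 bases before the annotated start, from RefSeq on build GRCh38.p14, plus strand, at chr5:69166900-69167149 for CCNB1 and chr15:41332631-41332880 for NUSAP1. Capitals mark CCAAT, its reverse complement ATTGG and TTTAAA.
CCNB1: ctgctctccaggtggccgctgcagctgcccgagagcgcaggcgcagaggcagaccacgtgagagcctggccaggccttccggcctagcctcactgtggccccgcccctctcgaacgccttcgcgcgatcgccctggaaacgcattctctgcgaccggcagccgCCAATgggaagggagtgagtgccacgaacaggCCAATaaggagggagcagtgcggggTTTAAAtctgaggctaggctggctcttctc
NUSAP1: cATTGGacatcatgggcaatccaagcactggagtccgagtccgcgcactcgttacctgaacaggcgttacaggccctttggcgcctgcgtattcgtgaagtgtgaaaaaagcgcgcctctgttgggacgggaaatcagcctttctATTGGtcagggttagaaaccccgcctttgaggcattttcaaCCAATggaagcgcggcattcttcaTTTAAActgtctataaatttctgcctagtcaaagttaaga
Searched on both strands, a CCAAT and a TTTGAA or TTTAAA were found together in 18 of 27 promoters of mitosis genes (66.7%). They were together in 5.96% of the 9702 promoters of genes kept and in 9.49% of all 27305 promoters. TTTGAA or TTTAAA alone was found in 22 of 27 promoters of mitosis genes (81.5%) and 3 of 32 of DNA replication genes (9.38%). For this the share was 14.9% among genes kept and 24.3% of all. These shares describe letters in the windows and were not set against the size of the difference.

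DNA replication genes were lower on balance, with TYMS as an exception. Of 36 listed genes 35 were kept, of which 27 were lower and 8 higher, with a median of -0.35, or -0.23 with dim levels raised. The test called 1 of the 35 higher, TYMS, and 2 lower, against 0.211% and 0.834% of all genes. RRM2, the replication-phase subunit of ribonucleotide reductase, was dim with DHT+ET at 3.40, against 6.09 with DHT and 5.84 with vehicle, and fell by at least 0.42 (limma adjusted p = 0.00463, computed from the deposited difference). It thus went the other way from RRM2B, the p53-regulated subunit. GINS1, a gene of the replicative helicase complex, stood at 5.75 with DHT+ET, 6.87 with DHT and 6.65 with vehicle and fell by 1.12 ± 0.18 (limma adjusted p = 0.0487). GINS2, another member of that complex, was at least 1.16 lower without passing. The helicase genes MCM2, MCM3, MCM5 and MCM6 (named after their values were seen) had differences of -0.76, -0.94, at least 0.73 lower and -0.69, none of which passed.

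**Figure D4:**
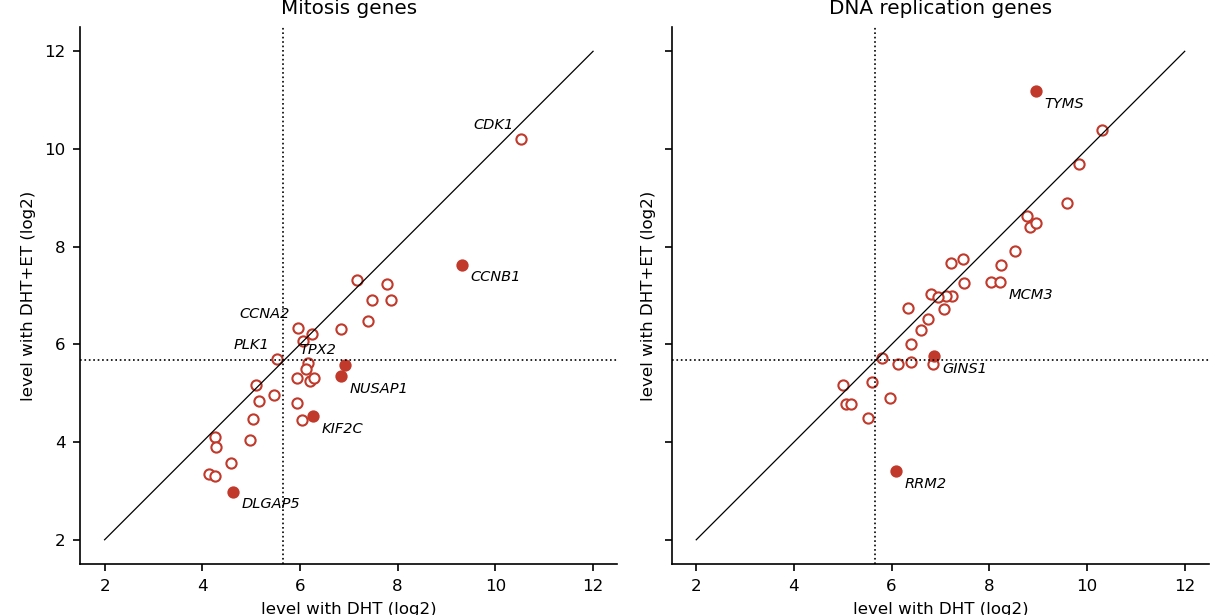
Log2 levels of mitosis and DNA replication genes with DHT+ET set against DHT, with the line of equality, dotted array medians and filled points for genes past limma. TYMS lies above the line at 11.19 with DHT+ET against 8.96 with DHT, and CCNB1 below it at 7.63 against 9.32.

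The longest genes were lower on balance with etoposide. Gene span here is the length of the gene in the RefSeq annotation, introns included, and 11855 of the 11865 genes (99.9%) had one. The median difference was -0.05 in each of the bins under 10 kb, 10 to 30 kb and 30 to 100 kb, -0.10 at 100 to 300 kb and -0.32 over the 360 genes of 300 kb and over. Of these 360 genes 276 were lower and 81 higher, 34 were at least 1 lower (9.44%) and 0 at least 1 higher, and the test called 28 lower (7.78%) and 0 higher. Below 10 kb 0.998% of 2705 genes were at least 1 lower and 0.887% at least 1 higher. Genes of 300 kb and over made up 3.04% of all genes with a span but 23.6% of those at least 1 lower. The median span was 60.3 kb for genes at least 1 lower, 22.9 kb for those at least 1 higher and 28.3 kb for all. Genes are not independent replicates, and as a description across them the Pearson correlation of the difference with log10 span was -0.10 and Spearman's rho -0.08.

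The pattern was seen at each level of expression. The longest bin minus the shortest gave -0.27 over all genes, -0.15 in the lowest part of the genes split into 3 equal parts by mean level, -0.25 in the middle part and -0.49 in the highest part. With dim genes kept in, it was -0.0499. In the highest part, 16 of the 78 genes of 300 kb and over were at least 1 lower (20.5%). In the difference of DHT and vehicle the median of the genes of 300 kb and over was -0.01. In the difference of merbarone with DHT and DHT alone, a comparison that shares the DHT array, the median of these genes was 0.00, and 32 were at least 1 lower and 20 at least 1 higher, where 6.98% and 6.73% of all genes were. Merbarone is another topoisomerase II inhibitor, which blocks the enzyme without trapping it on cut DNA.

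The 34 long genes at least 1 lower had a median difference of -1.41 with etoposide, and 22 of them passed the test. They were chosen on this difference, so its size, the passes and the agreement of probe sets are partly fixed by the choice. In 33 of the 34, DHT and vehicle differed by under 0.5. Over all genes of 300 kb and over, the quartiles of that difference were -0.17 and 0.11. Of the 24 with more than 1 probe set above the array median on either array, 22 had every such probe set lower. In the difference of merbarone with DHT and DHT alone, with levels as deposited, the 34 genes had a median of -0.28. By that difference 7 of them were at least 1 lower and 10 were above 0. With dim levels raised, 6.98% of all genes were at least 1 lower there. That difference shares the DHT array on which the 34 were chosen. IL1RAPL1, a synaptic receptor gene with a span of 1369 kb, was dim with DHT+ET at 5.16, against 8.38 with both DHT and vehicle, and fell by at least 2.71 (limma adjusted p = 0.00463). GRIK2, a glutamate receptor gene of 676 kb, was dim with DHT+ET at 5.52, against 8.24 with DHT and 8.23 with vehicle, and fell by at least 2.56 (limma adjusted p = 0.0339). Both genes stood at the same level with DHT and vehicle, and among these arrays were below the array median only on the etoposide one. Other members, named after their values were seen, were genes of other cell functions. IMMP2L, a mitochondrial protease gene of 899.9 kb, stood at 9.23 with DHT+ET, 10.94 with DHT and 10.95 with vehicle. LPP, a cell adhesion gene of 738 kb, stood at 9.09 with DHT+ET, 10.64 with DHT and 10.52 with vehicle. ANK3, an ankyrin gene of 707 kb, stood at 11.57 with DHT+ET, 12.62 with DHT and 12.72 with vehicle. LUZP2 (586 kb) and EPHA3 (375 kb), described above, belong to this bin too.

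**Figure D5:**
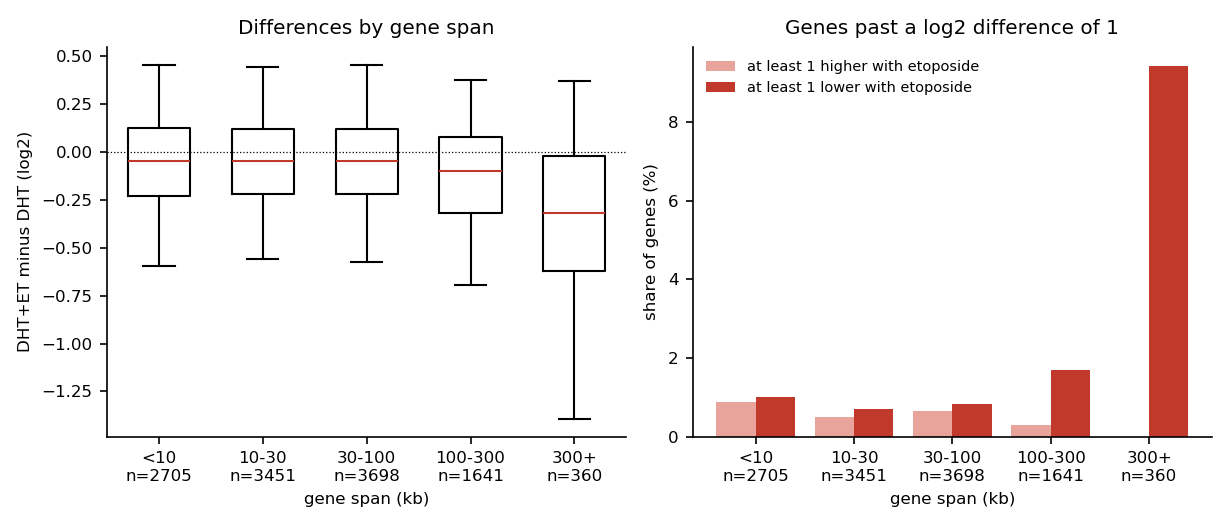
Differences (DHT+ET minus DHT, log2) of 11855 genes by RefSeq gene span, as boxes of the quartiles with a line at the median and whiskers at the 5th and 95th percentiles. The median is -0.05 in the 3 shorter bins, -0.10 at 100 to 300 kb and -0.32 at 300 kb and over.

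Of the genes of the enzymes that etoposide targets, TOP2B did not pass the test and TOP2A passed it at dim levels. TOP2B, the gene of topoisomerase II beta, had a level of 9.94 with DHT+ET, 10.57 with DHT and 10.55 with vehicle, and its difference of -0.63 ± 0.17 did not pass (limma adjusted p = 0.169). TOP2A, the form of dividing cells, was dim on both arrays at 2.45 with DHT+ET and 4.50 with DHT. It passed the test as lower (limma adjusted p = 0.0273) but not with the median over probe sets (limma adjusted p = 0.897), and is given no size. TOP1, the gene of topoisomerase I, stood at 11.71 with DHT+ET and 11.73 with DHT, and TDP2, which removes trapped topoisomerase II from DNA ends, at 11.28 with DHT+ET and 11.08 with DHT. Of 29 genes of break repair and checkpoint, 1 passed the test, against 1.05% of all genes, and their median was 0.07. It was BARD1, the partner of BRCA1, at 9.81 with DHT+ET, 11.49 with DHT and 11.50 with vehicle, which fell by 1.68 ± 0.23 (limma adjusted p = 0.0364).

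Among stress and growth genes single members passed the test, which 1.05% of all genes passed. MYC, a growth-promoting transcription factor gene, stood at 9.90 with DHT+ET, 11.21 with DHT and 11.02 with vehicle and fell by 1.31 ± 0.13 (limma adjusted p = 0.0118). KLF4, a transcription factor gene of arrest and differentiation, stood at 11.36 with DHT+ET, 10.41 with DHT and 10.19 with vehicle and rose by 0.95 ± 0.15 (limma adjusted p = 0.0473). In the list of 18 immediate early genes that holds both, the median was 0.17, or 0.0091 with the median over probe sets. Of 14 NF-kB and chemokine genes CXCL8 alone passed, the median was 0.28, and PTGS2, the gene of inducible cyclooxygenase, stood at 9.22 with DHT+ET, 11.15 with DHT and 11.32 with vehicle without passing (limma adjusted p = 0.125). PDIA4, a disulfide isomerase gene of the endoplasmic reticulum, fell by 0.79 ± 0.13 (limma adjusted p = 0.0487) in an unfolded protein response list with a median of -0.10, or -0.29 with the median over probe sets.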

How the data were processed

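Gene expression of LNCaP cells was read from 9 Affymetrix U133 Plus 2.0 arrays, 1 per group. The values are log2 levels deposited by the authors in 1 table of 54675 probe sets, and RMA is named per the submitters' processing notes. RMA corrects background and makes array distributions alike, so a shift common to most genes would not show. The sources used here do not give its version or later steps. Arrays carry no read depth, and their number limits the precision.

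From these values the brightest probe set, by mean over all 9 arrays, stood for each gene, among 41097 probe sets with 1 symbol in the platform annotation (1801 had several and 11777 none). That gave 19775 genes, and those with a mean under the 40th percentile were left out, leaving 11865. RefSeq (GRCh38.p14) gave spans and promoters. limma 3.58.1 in R 4.3.3 fitted background, DHT and 1 term each for steady state, etoposide and merbarone, with an intensity trend, which left 2 residual and 4.62 prior degrees of freedom. The difference between the DHT+ET and DHT arrays was tested over its standard error, two-sided, at an adjusted p of 0.05. The median standard error was 0.20. The calculation was tested on simulated data. Array medians, not detection calls, mark dim levels. Span, list and rise-kept values are descriptions with no test.

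Members and lists were chosen with earlier results of these data known. Genes named are the 15 largest rises and 15 largest falls, up to 4 called members of each list, and a fixed set of androgen, topoisomerase and p53 genes. Some genes are not reported here. Python 3.11.15 with pandas 2.3.3 and matplotlib 3.10.9 made the counts and figures. Alternatives changed the probe set rule, filter, scaling, dim levels, trend and the pairs in the fit.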

Additional observations from a re-analysis of the deposited data

How the results depend on the processing

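The comparison has 1 array a side, so what depends on processing is mostly how many genes pass. Of the counts, list medians, shares and spans under the alternatives, 139 values stayed close to those reported and 24 moved. Of medians near 0, those of break repair (-0.0466) and integrated stress response genes (-0.021) took the other sign with the median over probe sets, as did that of ribosomal protein genes (0.0388) when centred on themselves. Genes at least 1 higher numbered 33 with a stricter filter, which tests fewer genes. limma called 11 higher and 45 lower with no filter, 156 lower with the stricter filter, 59 lower with arrays centred on ribosomal protein genes, 53 lower after quantile normalization again, and 47 higher and 184 lower when the fitted DHT level replaced the DHT array. limma called 0 higher and 0 lower with no intensity trend (1529 genes had an unadjusted p under 0.05) or without the sh-control pair (1436), and 6 higher and 23 lower without the sh-TOP2B pair (1181). Centring moved the share of higher calls to 29.8%, against 20.2%. With the median over probe sets, list medians were -0.44 for androgen-induced, 0.0091 for immediate early, -0.29 for unfolded protein response and -1.71 for glucuronosyltransferase genes, the last -1.08 with no filter. With dim levels raised they were -0.26 for mitosis and -0.032 for topoisomerase genes, the topoisomerase list -0.20 with no filter. The longest minus the shortest span bin was -0.0499 with no filter and -0.49 in the highest part of level. The cause of these shifts was not tested. Of the values for named genes under other probe set rules and scalings, 176 stayed on the same side of the test threshold, called or not called. A call was lost in 19 and gained in 1 (XPC, with the median over probe sets). Sizes could change without this: with the median over probe sets ACP3 moved from -2.03 to -0.68, LINC00537 from 1.72 to 0.36 and KLK2 from -2.66 to -1.12. Among named genes only TOP1, at -0.0201 and not past the test, took the other sign, at 0.0664 centred and 0.051 after quantile normalization. BARD1, GINS1, KIF2C, KLF4, MMP16, PDIA4, UGT2B15, UGT2B28, ZMAT3, BAX, ANKRD20A12P and TOP2A were the genes that lost a call. No paired analysis was possible because DHT+ET and DHT have 1 array each, so no replicate numbers pair them. The 3 DHT pairs serve as blocks in the fit that gives the spread. The deposited levels, without raising dim ones, gave 74 genes at least 1 higher and 168 at least 1 lower.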

Other observations

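Interferon-stimulated genes, which TRIM22 is often counted with, were lower on balance, with a median of -0.26 over 22 genes and none past limma. OASL, a gene of the antiviral oligoadenylate family, stood at 7.07 with DHT+ET and 8.50 with DHT, IFIT1, which binds viral RNA, at 8.67 with DHT+ET and 9.96 with DHT, and BST2, a gene that tethers viruses to the cell, at 6.84 with DHT+ET and 7.85 with DHT. Of 19 sterol and fatty acid synthesis genes 17 were lower, with a median of -0.24 and none past limma. None of the 9 histone genes kept was lower, the median was 0.17, and H2BC4 stood at 11.28 with DHT+ET and 10.41 with DHT (named after its value was seen). The prostate marker ACP3, the gene of prostatic acid phosphatase, stood at 7.52 with DHT+ET, 9.54 with DHT and 9.78 with vehicle, and its difference of -2.03 did not pass (limma adjusted p = 0.0626). Integrated stress response (0.05), heat shock (-0.11), apoptosis regulator (-0.10), polyamine (-0.16), luminal identity (-0.19), oxidative phosphorylation (-0.11) and ribosomal protein genes (-0.05) had the medians given beside them.

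Among noncoding transcripts more genes were higher than lower, and among coding genes the reverse. Of 566 long noncoding RNA genes 10 were at least 1 higher and 3 at least 1 lower, with a median of 0.05, and of 159 transcribed pseudogenes 4 were higher and 0 lower. By the same rule 0.59% of all genes were higher and 1.21% lower. Of 11094 protein-coding genes 56 were higher and 141 lower, with a median of -0.07. Of the 4 genes that DHT had lowered by at least 1 in the inhibitor series, LINC02591 was at 8.12 with DHT+ET, 7.14 with DHT and 8.16 with vehicle and PGM2L1 at 7.18, 6.63 and 7.77 on the same arrays, while COL5A2 and DYRK3 differed from DHT by 0.10 and -0.04 (all 4 named because no others met the rule). A p53 consensus was found in 0 of 39 promoter windows of the p53 targets, which says only that these letters are not in those windows. It was found in 23 of 9702 windows of genes kept (0.237%) and 104 of 27305 windows in all (0.381%).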
